A study of Mus musculus with 62 samples.

Results

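*Agap1*, *P4ha2*, *Polr1d*, *Rnf14* and *Actr3b* are 5 mouse genes with 20 transcripts in the table of read counts, which holds 23877 transcripts of 10476 named genes. They were chosen because their translation efficiency (TE, the ribosome footprints of a transcript relative to its mRNA) differed between C2C12 cells that overexpress RPL3L (RPL3L OE) and C2C12 cells that overexpress RPL3 (RPL3 OE). The mRNA, footprint and TE values of these cells are therefore a description of how the genes were chosen, and no p-value is given for the 5 genes there. Values in the heart were not used in the choice and were tested.

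RPL3L, which is made in heart and skeletal muscle, can take the place of its paralog RPL3 in the ribosome, and the study asked how ribosomes with one or the other protein differ in translation. C2C12 is an established line of mouse myoblasts, and all cultures came from this single line. It was infected with a retrovirus (pCX4 with puromycin resistance) encoding mouse RPL3L or mouse RPL3, or with the empty vector (control), was selected with puromycin and was kept proliferating, with 3 cultures per group. Hearts were taken from male C57BL/6J mice at 10 weeks of age that were *Rpl3l*+/+ (WT) or lacked *Rpl3l* after CRISPR-Cas9 editing (*Rpl3l*-/-), with 4 mice per genotype. RNA-seq, which measures mRNA, and Ribo-seq, which sequences the mRNA pieces covered by ribosomes, were made for all of these samples. The labels do not say that libraries of the 2 assays with the same number came from the same culture, nor that cultures of a group were infected separately, so p-values measure the spread between these samples only.

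The amount of protein made from an mRNA depends on how much of the mRNA there is and on how often ribosomes start on it and how fast they move along it. TE compares footprints with mRNA, so it differs between cells when footprints differ, when mRNA differs without a matching difference in footprints, or both. A high density of footprints can come from more frequent starts or from slower movement, and the ratio alone does not separate these.

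The study concerns ribosome movement at proline and alanine codons. The stretch of 10 codons with the most such codons in the lead transcript of 4 of the genes is therefore printed here from GRCm38 (plus strand, 5′ to 3′), with proline and alanine codons in capitals. The lead transcript of a gene is its isoform with the most RNA-seq reads in C2C12 cells. The stretches lie in coding exons, in *Agap1-202* at chr1:89743800-89743829 (codons 276 to 285), in *P4ha2-201* at chr11:54111442-54111471 (codons 69 to 78), in *Polr1d-202* at chr5:147110838-147110867 (codons 98 to 107) and in *Actr3b-201* at chr5:25825108-25825137 (codons 145 to 154).
Agap1: CCGCCCcgaGCCacgtctGCCtgtGCACCG
P4ha2: GCCctgaccagcagatcaGCTGCCgacCCC
Polr1d: tcccggggctccGCAggctgctctCCTCCA
Actr3b: GCAgtgctgGCTctgGCAGCCtcttggaca

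These stretches hold 6 proline or alanine codons of 10 in *Agap1*, 4 in *P4ha2* and *Actr3b* and 3 in *Polr1d*. Over the whole coding sequence, proline and alanine made up 11.6% of the codons of *Agap1-202*, 11.9% of *P4ha2-201*, 11.1% of *Polr1d-202*, 10.9% of *Rnf14-203* and 12.2% of *Actr3b-201*. All 5 shares lay below the median of 12.7% over 5392 lead transcripts, at percentiles 28.2 to 43.9. In other features the 5 were unlike each other. *Polr1d-202* has a short coding sequence of 378 bases (percentile 4.5) with 15.9% lysine and asparagine codons (percentile 96.8). *Agap1-202* has a 5′ UTR of 1673 bases (percentile 99.7) and *Rnf14-203* one of 658 bases (percentile 96.6), whereas that of *Actr3b-201* has 59 bases (percentile 15.7).

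The labels were checked with *Rpl3l-202*. Levels are given in CPM, the count of a transcript relative to the size of its library after TMM scaling. Among C2C12 cells, it averaged 0.363 CPM in control, 0.404 CPM in RPL3 OE and 2018 ± 30.5 CPM in RPL3L OE cultures (SD, n = 3), and in the heart it was 459 ± 80.9 CPM in WT and 30.2 ± 7.05 CPM in *Rpl3l*-/- mice (SD, n = 4). *Rpl3* lies on the minus strand and is not analysed here, so the overexpression of RPL3 was not checked. The libraries of C2C12 cells held 7647102 to 29746110 counts in RNA-seq and 3167026 to 6093268 in Ribo-seq, and those of the heart 3594696 to 22425296 and 1606700 to 3192090. RNA-seq depth differed between groups, with 14324795 to 29746110 counts in control, 7647102 to 11669868 in RPL3 OE and 8091836 to 9715596 in RPL3L OE cultures. In the heart it was 3594696 to 14041366 in WT and 10930435 to 22425296 in *Rpl3l*-/- mice. The part of depth in the values below was not tested. Of 7 myoblast markers 5 were measured, and all 5 were above 1 CPM in C2C12 cells. Of 12 cardiomyocyte markers 6 were measured, and 5 of these 6 were below 1 CPM there. The summed cardiomyocyte markers, led by *Tnnt2* in C2C12 cells, were 222 to 229 CPM in control, 248 to 254 in RPL3 OE and 276 to 297 in RPL3L OE cells. In WT hearts they reached 40490 to 54410 CPM. The summed myotube markers were 29.2 to 31.7 CPM in control cells, 20.2 to 21.5 in RPL3 OE cells and 32.8 to 34.3 in RPL3L OE cells (5 of 7 measured, with *Ckm* below 1 CPM). The summed fibroblast markers were 1740 to 1822, 2628 to 2656 and 1914 to 1953 CPM in the same order (5 of 6 measured). These sums moved with the groups, and their part in the values below was not tested. In bulk samples, fewer cells of a type and less RNA per cell cannot be told apart.

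Among the products of *Polr1d* is a small subunit that RNA polymerases I and III share, the enzymes that make ribosomal RNA and transfer RNA. Which of its isoforms encode this subunit was not examined. The gene lies at chr5:147077050-147111597. RNA-seq of *Polr1d-202* gave 115, 127 and 120 CPM in the 3 control cultures, 131, 116 and 129 CPM in RPL3 OE cells and 114, 116 and 107 CPM in RPL3L OE cells. Ribo-seq gave 52.2, 42.9 and 49.0 CPM in control cells, 43.8, 44.8 and 48.1 CPM in RPL3 OE cells and 51.2, 44.8 and 49.7 CPM in RPL3L OE cells. The RNA-seq values were lower in every RPL3L OE culture than in every RPL3 OE culture by a narrow margin, and the Ribo-seq values of all 3 groups overlapped. The TE of *Polr1d-202* was 0.364 in RPL3 OE and 0.433 in RPL3L OE cells, a log2 difference of 0.26 (SE 0.098) that did not pass the threshold of the choice.

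*Polr1d* was chosen through its shorter isoforms. *Polr1d-204* and *Polr1d-206* had a higher TE in RPL3L OE than in RPL3 OE cells by 0.72 on the log2 scale each (SE 0.16 and 0.17), with RNA-seq differences of -0.26 and -0.23 and Ribo-seq differences of 0.46 and 0.50. The coding sequence of *Polr1d-204* has 99 bases, all of which lie within the 5′ part of that of *Polr1d-202*, so its reads are also reads of *Polr1d-202*. *Polr1d-206* has a coding sequence of 126 bases and is annotated as a target of nonsense-mediated decay, and *Polr1d-201* has another 3′ end and a TE difference of 0.30.

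The counts of *Polr1d-202* were therefore split into those of the 5′ part shared with *Polr1d-204* and the remainder, a split that was chosen after the values had been seen. Footprints on the 5′ part were 12.6, 8.01 and 9.02 CPM in control cells, 10.2 to 11.1 CPM in RPL3 OE cells and 14.1, 15.2 and 15.0 CPM in RPL3L OE cells. Footprints on the remainder were 39.6, 34.9 and 39.9 CPM in control cells, 33.6, 33.8 and 37.0 CPM in RPL3 OE cells and 37.1, 29.6 and 34.7 CPM in RPL3L OE cells. On the 5′ part every RPL3L OE culture lay above every other culture, and on the remainder all 3 groups overlapped. The counts of the 5′ part are the counts of *Polr1d-204*, an isoform through which the gene was chosen. The separation of RPL3L OE from RPL3 OE cells on the 5′ part is therefore part of that choice. The 5′ part rests on 25 to 93 Ribo-seq counts per culture, and its mRNA was 69.4 ± 4.53 CPM in RPL3 OE and 58.0 ± 4.08 CPM in RPL3L OE cells (SD, n = 3). Reads on the 5′ part can also come from *Polr1d-201*, whose coding sequence starts at the same base. Ribo-seq of *Polr1d-201* gave 36.5 to 45.1 CPM in control, 41.6 to 51.6 CPM in RPL3 OE and 48.9 to 50.3 CPM in RPL3L OE cells. The split therefore does not show how footprints lie along a single mRNA.

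**Figure D1:**
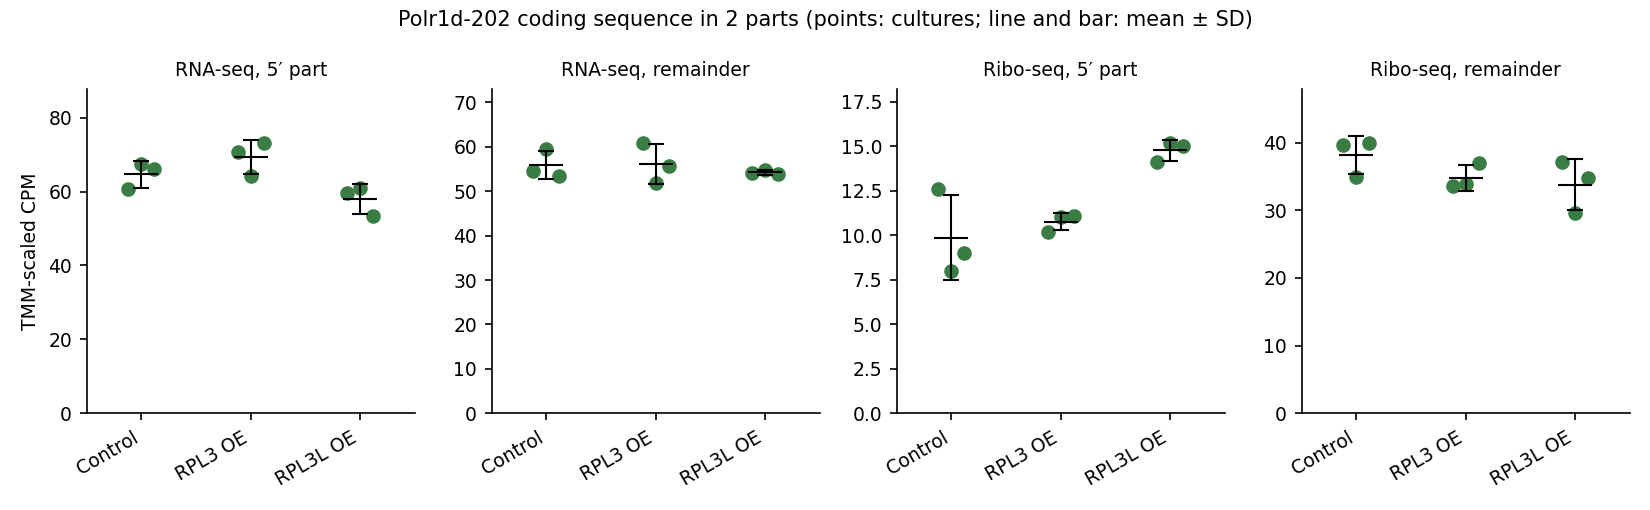
RNA-seq and Ribo-seq levels (TMM-scaled CPM) of the 5′ part of the *Polr1d-202* coding sequence, which *Polr1d-204* shares, and of the remainder, in C2C12 cells. The counts of the 5′ part are those of *Polr1d-204*, and reads there can also come from *Polr1d-201*. Points are cultures and bars are mean ± SD of 3; footprints on the 5′ part reach 14.1 to 15.2 CPM in RPL3L OE cells and at most 12.6 CPM in the other groups.

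*Rnf14*, on chromosome 18, encodes an E3 ubiquitin ligase of the RING-between-RING family that acts on proteins trapped on stalled ribosomes. RNA-seq of *Rnf14-203* gave 60.1, 60.2 and 66.1 CPM in control cells, 61.4, 66.6 and 59.7 CPM in RPL3 OE cells and 62.6, 50.4 and 61.4 CPM in RPL3L OE cells, and the groups overlapped. Ribo-seq gave 36.3, 34.9 and 31.9 CPM in control cells, 31.0, 32.2 and 32.4 CPM in RPL3 OE cells and 39.5, 41.8 and 43.1 CPM in RPL3L OE cells. Here the footprints of all 3 RPL3L OE cultures were above those of all other cultures, at similar mRNA levels. Between RPL3L OE and RPL3 OE cells the log2 difference was -0.10 in RNA-seq, 0.38 in Ribo-seq and 0.48 in TE (SE 0.12). TE was 0.556 in control, 0.511 in RPL3 OE and 0.721 in RPL3L OE cells.

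The fitted TE difference was above 0 for the other 6 isoforms of *Rnf14* too, of which *Rnf14-201*, *Rnf14-202* and *Rnf14-209* passed the threshold of the choice. *Rnf14-201* and *Rnf14-209* have the same coding sequence as *Rnf14-203* and nearly the same counts. *Rnf14-217*, with a coding sequence of 69 bases, and *Rnf14-218*, with 117 bases, had TE differences of 1.13 (SE 0.37) and 1.04 (SE 0.36), and *Rnf14-212* had one of 0.44 (SE 0.22). These 3 did not pass, and the TE values of RPL3L OE and RPL3 OE cultures overlapped for *Rnf14-212* and *Rnf14-218*. The short isoforms rest on few footprints, with Ribo-seq counts of 12, 7 and 5 in RPL3 OE and 17, 15 and 26 in RPL3L OE cultures for *Rnf14-217*, and of 18, 9 and 8 against 25, 14 and 37 for *Rnf14-218*. Isoforms share reads and are not separate measurements of a gene.

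*P4ha2*, at chr11:54100095-54131665, encodes a catalytic subunit of prolyl 4-hydroxylase, which hydroxylates proline in collagen chains in the endoplasmic reticulum. RNA-seq of *P4ha2-201* gave 27.6, 26.0 and 27.5 CPM in control cells, 24.2, 25.2 and 21.9 CPM in RPL3 OE cells and 34.0, 37.5 and 38.2 CPM in RPL3L OE cells. Ribo-seq gave 68.1, 58.3 and 59.3 CPM in control cells, 63.5, 62.7 and 59.5 CPM in RPL3 OE cells and 68.9, 67.9 and 62.1 CPM in RPL3L OE cells. The mRNA groups were separate, with RPL3 OE cells lowest and RPL3L OE cells highest, whereas the footprints of the 3 groups overlapped. Between RPL3L OE and RPL3 OE cells, the log2 difference was 0.63 in RNA-seq, 0.09 in Ribo-seq and -0.55 in TE (SE 0.11). TE was 2.29 in control, 2.61 in RPL3 OE and 1.82 in RPL3L OE cells, so *P4ha2* carried more footprints per mRNA than *Agap1*, *Polr1d* and *Rnf14* in every group.

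*Agap1*, at chr1:89454806-89897617, encodes a GTPase-activating protein for Arf that binds the adaptor complex AP-3 and acts in endosomal transport. RNA-seq of *Agap1-202* gave 96.4, 93.1 and 96.6 CPM in control cells, 64.4, 61.3 and 61.7 CPM in RPL3 OE cells and 141, 132 and 137 CPM in RPL3L OE cells. Ribo-seq gave 34.9, 34.3 and 41.5 CPM in control cells, 26.0, 25.5 and 25.7 CPM in RPL3 OE cells and 34.9, 34.8 and 38.1 CPM in RPL3L OE cells. The mRNA groups were separate, with RPL3 OE cells lowest and RPL3L OE cells highest, whereas the footprints were separate only between RPL3 OE cells and the other groups. Between RPL3L OE and RPL3 OE cells the log2 difference was 1.13 in RNA-seq, 0.49 in Ribo-seq and -0.65 in TE (SE 0.11). The other isoforms, *Agap1-201* and *Agap1-204*, had TE differences of -0.63 and -0.66.

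Against control cells, *Agap1-202* mRNA had a log2 difference of -0.61 in RPL3 OE and 0.52 in RPL3L OE cells, and its footprints of -0.51 and -0.03. In RPL3 OE cells mRNA and footprints were thus lower by similar amounts, and TE differed from control by 0.10. In RPL3L OE cells the footprints were near those of control cells at a higher mRNA level, and TE differed by -0.55. Both comparisons use the same control libraries.

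*Actr3b*, at chr5:25759997-25850688, encodes a paralog of Arp3, a subunit of the Arp2/3 complex that nucleates branched actin filaments. It had the lowest mRNA level of the 5 genes. RNA-seq of *Actr3b-201* gave 3.41, 3.73 and 3.02 CPM in control cells, 4.88, 4.70 and 5.69 CPM in RPL3 OE cells and 1.60, 1.83 and 2.36 CPM in RPL3L OE cells. Ribo-seq gave 5.69, 4.81 and 4.19 CPM in control cells, 5.86, 5.42 and 6.71 CPM in RPL3 OE cells and 7.25, 6.48 and 5.81 CPM in RPL3L OE cells. The mRNA groups were separate, with RPL3L OE cells lowest and RPL3 OE cells highest, and the footprints of RPL3L OE and RPL3 OE cells overlapped.

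Between RPL3L OE and RPL3 OE cells, *Actr3b-201* had a log2 difference of -1.39 in RNA-seq, 0.13 in Ribo-seq and 1.52 in TE (SE 0.33), the largest TE difference of a lead transcript among the 5 genes. TE was 4.53, 3.54 and 2.47 in the RPL3L OE cultures, 1.15 to 1.20 in the RPL3 OE cultures and 1.67, 1.29 and 1.38 in the control cultures. These ratios rest on RNA-seq counts of 13, 16 and 23 in the RPL3L OE cultures and on Ribo-seq counts of 13 to 36 in all cultures, which limits their precision. *Actr3b-202* had a TE difference of 1.56 (SE 0.36).

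**Figure D2:**
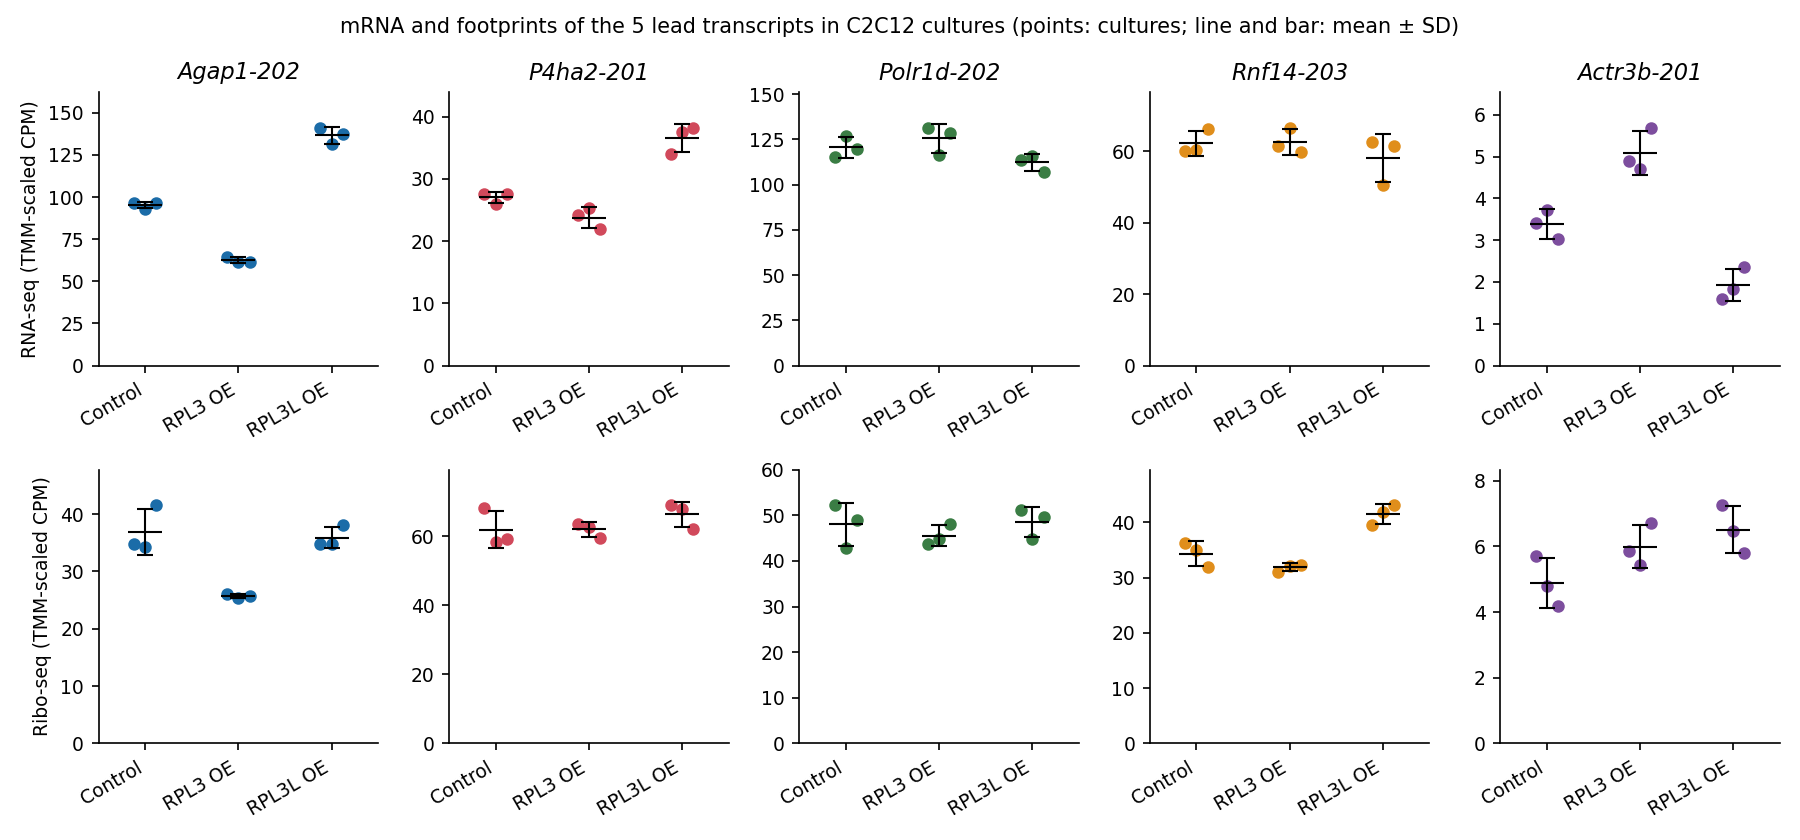
RNA-seq (upper row) and Ribo-seq (lower row) levels, in TMM-scaled CPM, of the lead transcripts of the 5 genes in control, RPL3 OE and RPL3L OE C2C12 cells. Points are cultures and bars are mean ± SD of 3; mRNA groups are separate for *Agap1* (61.3 to 64.4 CPM in RPL3 OE and 132 to 141 CPM in RPL3L OE cells), *P4ha2* and *Actr3b*, whereas for *Rnf14* the footprints of RPL3L OE cells are apart.

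The 5 genes therefore reached a TE difference between RPL3L OE and RPL3 OE cells in different ways. For *Agap1*, *P4ha2* and *Actr3b* the difference in mRNA was larger than that in footprints, and for *Rnf14-203* and the short *Polr1d* isoforms the difference in footprints was larger. Of the 17 genes whose TE passed the threshold, 11 had the larger difference in RNA-seq. Of these 11, 3 are *Agap1*, *P4ha2* and *Actr3b* and 8 are among the other 12 genes. These 8 include *Rpl3l*, the overexpressed gene itself, with 12.28 in RNA-seq and 7.98 in Ribo-seq. Over all transcripts tested, the RNA-seq difference was the larger in 51.4%, and the median sizes of the log2 differences were 0.14 in RNA-seq, 0.14 in Ribo-seq and 0.11 in TE.

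**Figure D3:**
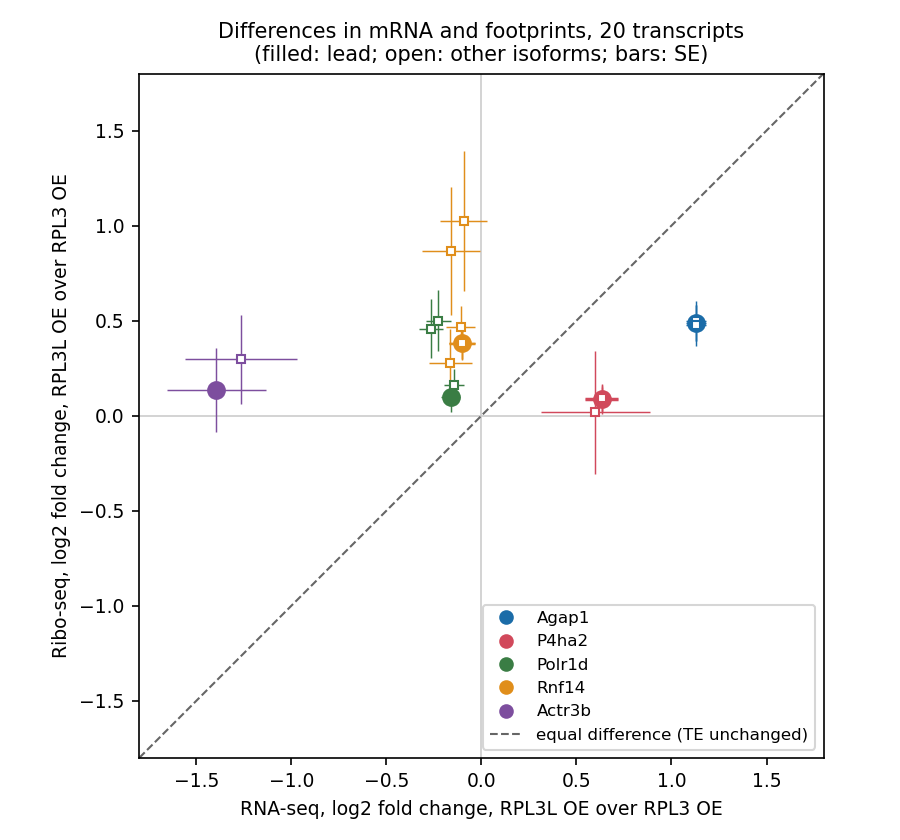
Log2 fold changes of RPL3L OE over RPL3 OE C2C12 cells in RNA-seq (x axis) and Ribo-seq (y axis) for the 20 transcripts of the 5 genes, with SE bars, filled points for lead transcripts and a dashed line where both differences are equal. *Agap1* (1.13 and 0.49) and *P4ha2* lie right of the line, *Actr3b* (-1.39 and 0.13) far to the left, and *Rnf14* and *Polr1d* near 0 on the x axis and above 0 on the y axis.

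In counts, 14 of the 20 transcripts, from all 5 genes, passed an adjusted p under 0.05 in TE between RPL3L OE and RPL3 OE cells, 8 of them higher in RPL3L OE cells, where 0.305% of 13457 transcripts passed. This count is what the genes were chosen on. The same contrast of RNA-seq held 12 of the 20 transcripts, from 4 genes, past the threshold against 27% of all transcripts. That of Ribo-seq held 10 of 20, from 3 genes and all higher, against 18.9%. TE is made from these 2 assays, so both counts are bound to the choice as well. Isoforms that share reads are counted separately in all of them. The TE count depended on single cultures: it was 7 without RPL3 OE replicate 1, 4 without RPL3 OE replicate 2, 6 without RPL3L OE replicate 2 and 4 without RPL3L OE replicate 3.

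At the threshold, ordered by fold change with 1 transcript per gene, *Actr3b-202* (1.56), *Polr1d-206* (0.72) and *Rnf14-202* (0.57) were the largest increases in TE, and the next were *Eny2-206* (0.49) and *Ppil4-201* (0.48). On the other side *Rpl3l-202* (-4.28), the overexpressed gene itself, was followed by *Agap1-204* (-0.66) and *P4ha2-202* (-0.55), and the next were *Zfhx3-201* (-0.53) and *Igfbp2-201* (-0.44). The steps from the chosen genes to the next ones were small.

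Each overexpression was also set against control cells, and all of these contrasts share the control libraries. They also use the RPL3L OE and RPL3 OE libraries on which the genes were chosen. Their counts in TE, mRNA and footprints are therefore a description and not a separate test of the choice. In RPL3L OE cells, TE differed from control by 0.10 for *Polr1d-202*, 0.37 for *Rnf14-203*, -0.35 for *P4ha2-201*, -0.55 for *Agap1-202* and 1.14 for *Actr3b-201*, and 5 of the 20 transcripts passed the threshold, from 2 genes, against 2.08% of all transcripts. In RPL3 OE cells, TE differed by -0.15 for *Polr1d-202*, -0.11 for *Rnf14-203*, 0.20 for *P4ha2-201*, 0.10 for *Agap1-202* and -0.38 for *Actr3b-201*. None of the 20 transcripts passed in RPL3 OE cells, against 0.052% of all transcripts, and DESeq2 gave an adjusted p to 0 of the 20. At an unadjusted p under 0.05 in edgeR's quasi-likelihood test it was 0 of the 20, where 1054 of all 13457 transcripts were. The count of 5 in RPL3L OE cells was 3 without control replicate 2, 2 without control replicate 3, 11 without RPL3L OE replicate 1, 3 without RPL3L OE replicate 2 and 3 without RPL3L OE replicate 3.

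The log2 differences of mRNA from control in RPL3L OE cells were -0.10 for *Polr1d-202*, -0.10 for *Rnf14-203*, 0.43 for *P4ha2-201* and -0.77 for *Actr3b-201*, and 7 of the 20 transcripts passed, against 9.26% of all. In RPL3 OE cells they were 0.06, -0.00, -0.20 and 0.62 in the same order, and 4 of the 20 passed, against 16.1% of all. In both contrasts *Agap1* was among the genes that passed, in opposite directions. The mRNA of *Actr3b-201* was below control in RPL3L OE cells and above it in RPL3 OE cells, without overlap in either case.

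Footprints in RPL3L OE cells differed from control by 0.00 for *Polr1d-202*, 0.27 for *Rnf14-203*, 0.08 for *P4ha2-201* and 0.38 for *Actr3b-201*, and 5 of the 20 transcripts passed, against 11.1% of all. In RPL3 OE cells these differences were -0.09, -0.12, -0.01 and 0.25, and 3 of the 20 passed, all of them isoforms of *Agap1*, against 10.6% of all. The count of 5 was 3 without control replicate 1 or without any 1 of the RPL3 OE cultures, and 0 without control replicate 2, control replicate 3, RPL3L OE replicate 2 or RPL3L OE replicate 3. The value of *Rnf14-203* is the only one of the 5 leads in which footprints in RPL3L OE cells were above both other groups at an mRNA level that overlapped with both.

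The other genes of the pathways of the 5 genes were given by lists, with 1 transcript per gene and the 5 genes left out. Only part of each list could be tested, and some genes were listed under an old and a new name. In TE, 17 of 40 names were tested for RNA polymerase I and III, 20 of 35 for Arp2/3 and 14 of 28 for stalled ribosomes. For Arf and AP-3 it was 11 of 29, for collagen modification 8 of 21 and for RING-between-RING ligases 3 of 14. In TE between RPL3L OE and RPL3 OE cells, 0 genes of any list passed, against 0.278% of 5405 genes tested (edgeR's quasi-likelihood test, Benjamini-Hochberg). The RNA polymerase I and III list (17 tested) had a median log2 difference of 0.03, with *Polr2k*, a subunit of all RNA polymerases, at 0.39 (adjusted p = 0.074, edgeR), and *Crcp* and *Taf1d* at 0.25 and 0.24. The Arp2/3 list (20 tested) had a median of 0.00, with *Arpc1a*, a subunit of the complex, at 0.36 (adjusted p = 0.109, edgeR), *Arpc1b* at 0.14 and *Abi2* at -0.23. The median of all genes was 0.00.

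The stalled ribosome list (14 tested) had a median TE difference of 0.04, with *Ascc2* at -0.25, *Gcn1l1* at -0.16 and *Tcf25* at -0.12. The other ubiquitin ligases of the RING-between-RING family (3 tested) had a median of -0.19, with *Rnf19b* at the same value, *Rnf31* at -0.20 and *Rnf144b* at 0.09. The list of Arf GTPase-activating proteins and AP-3 (11 tested) had a median of 0.03, with *Ap3s1*, an AP-3 subunit, at 0.21, and the Arf GTPase-activating proteins *Arap1* at -0.31 (SE 0.18) and *Asap3* at -0.55 (SE 0.35, adjusted p = 0.666, edgeR), the lowest value of the list. The list of collagen modification (8 tested) had a median of -0.06, with *Fkbp10* at -0.10, *P4ha3* at 0.28 and *Plod2* at -0.15.

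In mRNA the pathway genes differed more often, as did all genes, of which 27.6% of 5728 passed. Of the collagen modification list 3 genes fell and 0 rose in RPL3L OE relative to RPL3 OE cells, namely *P4ha3* (-0.67) and *P4ha1* (-0.35), which encode the other catalytic subunits of prolyl 4-hydroxylase, and *Colgalt1* (-0.19), a collagen galactosyltransferase. *P4ha2* mRNA differed by 0.63 in the opposite direction. Of the RNA polymerase list 2 rose and 3 fell, of the Arp2/3 list 3 rose and 2 fell, of the stalled ribosome list 4 rose and 1 fell, of the Arf and AP-3 list 2 rose and 1 fell, and of the RING-between-RING list 1 rose and 0 fell. *Arpc1b* (-0.25) and *Arpc1a* (-0.21) fell, the direction of *Actr3b* mRNA, and *Mical2* (0.33), whose product oxidizes actin, rose.

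As a description of likeness, the TE of each lead transcript was compared across the 9 C2C12 library pairs with that of 7600 transcripts of other genes, by Pearson's r of log2 values. The genes with the highest r were *Bin1* (0.982) and *Ptgs1* (0.931) for *Agap1*, *Igfbp2* (0.925) and *Sgsm3* (0.923) for *P4ha2*, *Loxl3* (0.948) and *Nudcd2* (0.899) for *Polr1d*, *Pcyt1a* (0.945) and *Rngtt* (0.921) for *Rnf14*, and *Fbxo3* (0.967) and *Aida* (0.931) for *Actr3b*. Because r takes no account of size, the sizes could differ, and the log2 TE of *Agap1* spanned 0.80 and that of *Bin1* 0.19, and that of *Actr3b* 1.97 and that of *Fbxo3* 0.32. The 9 points share 3 groups and their libraries, and the libraries of a pair (1 of each assay) share only a number.

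In the heart, *Rpl3l*-/- mice were compared with WT mice. Of the 20 transcripts 0 passed the threshold in RNA-seq, where 0.013% of all transcripts did, 0 of the 18 that could be tested in Ribo-seq, where 0.764% did, and 0 of 18 in TE, where 0% did (edgeR's quasi-likelihood test). At an unadjusted p under 0.05 the counts were also 0 in each with the filter on low counts, which removed *Polr1d-204* and *Polr1d-206* from Ribo-seq and TE, and DESeq2 called 0 of the 19 transcripts to which it gave an adjusted p in RNA-seq and 0 of 9 in Ribo-seq, and gave none in TE. Over all transcripts, 805 of 12483 had an unadjusted p under 0.05 in TE. Summed airway markers were 1.15 to 455 CPM in WT and 0.820 to 1524 CPM in *Rpl3l*-/- hearts (6 of 10 markers in the table), so they differed between mice of both genotypes, and their part in the values of the heart was not tested.

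RNA-seq of *Polr1d-202* in the heart gave 60.2, 49.2, 39.1 and 50.6 CPM in WT and 50.4, 58.7, 50.2 and 42.0 CPM in *Rpl3l*-/- mice. Ribo-seq gave 7.06, 10.2, 9.39 and 9.63 CPM in WT and 5.24, 6.89, 9.75 and 8.10 CPM in *Rpl3l*-/- mice. The genotypes overlapped in both assays. TE differed by -0.31 (SE 0.28, adjusted p = 0.904, edgeR's quasi-likelihood test), with an approximate 95% interval from -0.86 to 0.25.

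The short isoforms *Polr1d-204* and *Polr1d-206* had too few footprints in the heart to be tested beside the others. *Polr1d-204* had Ribo-seq counts of 7, 8, 11 and 5 in WT and 2, 4, 3 and 1 in *Rpl3l*-/- mice. The counts of all *Rpl3l*-/- mice were thus below those of all WT mice, at RNA-seq levels of 23.0 to 39.0 CPM in WT and 31.6 to 41.0 CPM in *Rpl3l*-/- mice that overlapped. Without the filter on low counts its Ribo-seq difference was -1.20 (adjusted p = 0.282, edgeR's quasi-likelihood test) and its TE difference -1.37 (SE 0.48, adjusted p = 0.696). For *Polr1d-206*, which shares most of these reads, they were -1.11 (adjusted p = 0.326, edgeR) and -1.26 (SE 0.48, adjusted p = 0.748). These isoforms were looked at because of their values in C2C12 cells. The 4 differences did not pass the threshold, and all had an unadjusted p under 0.05 in edgeR's test (0.0274 and 0.0395 in Ribo-seq, 0.0087 and 0.015 in TE). They rest on mostly the same few reads and are not 4 separate results. The share of all transcripts at that level in these unfiltered fits is not given here, so the 4 values cannot be set against it.

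RNA-seq of *Rnf14-203* gave 70.5, 48.7, 60.5 and 62.7 CPM in WT and 55.8, 52.6, 56.2 and 57.5 CPM in *Rpl3l*-/- mice. Ribo-seq gave 59.6, 64.5, 58.0 and 61.0 CPM in WT and 48.7, 54.7, 57.2 and 62.9 CPM in *Rpl3l*-/- mice. The genotypes overlapped, and TE differed by 0.00 (SE 0.16, adjusted p = 1.00, edgeR's quasi-likelihood test), with an interval from -0.32 to 0.32. *Rnf14* was the only one of the 5 genes with a peak of m6A, a methyl mark on mRNA, in m6A-seq of 3 hearts per genotype. Its peak had 15, 15 and 7 counts in WT and 16, 7 and 23 counts in *Rpl3l*-/- mice, a log2 difference of 0.27 (SE 0.49, adjusted p = 0.829, edgeR's quasi-likelihood test). It did not pass the threshold, as was true of all 2338 peaks tested (0%).

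RNA-seq of *P4ha2-201* gave 53.6, 44.2, 32.6 and 45.0 CPM in WT and 49.1, 38.9, 42.2 and 41.0 CPM in *Rpl3l*-/- mice. Ribo-seq gave 96.4, 80.1, 79.4 and 103 CPM in WT and 92.1, 88.3, 68.3 and 82.8 CPM in *Rpl3l*-/- mice. The genotypes overlapped, and the TE difference was -0.08 (SE 0.20, adjusted p = 0.991, edgeR's quasi-likelihood test), with an interval from -0.47 to 0.31.

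RNA-seq of *Agap1-202* gave 20.4, 15.0, 14.3 and 12.9 CPM in WT and 13.4, 12.6, 12.1 and 15.3 CPM in *Rpl3l*-/- mice. Ribo-seq gave 10.8, 17.97, 8.96 and 9.63 CPM in WT and 16.8, 10.8, 12.4 and 14.3 CPM in *Rpl3l*-/- mice. The genotypes overlapped, and TE varied among the WT mice from 0.528 to 1.20. Its difference of 0.39 (SE 0.30, adjusted p = 0.859, edgeR's quasi-likelihood test) had the widest interval of the 5 leads, from -0.20 to 0.98.

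RNA-seq of *Actr3b-201* gave 56.8, 35.2, 28.8 and 33.1 CPM in WT and 34.4, 39.8, 29.6 and 38.0 CPM in *Rpl3l*-/- mice. Ribo-seq gave 75.6, 62.9, 45.7 and 59.4 CPM in WT and 62.3, 60.3, 71.5 and 72.3 CPM in *Rpl3l*-/- mice. The genotypes overlapped, and the TE difference was 0.22 (SE 0.25, adjusted p = 0.925, edgeR's quasi-likelihood test), with an interval from -0.28 to 0.72. Disome-seq, which sequences the mRNA under pairs of collided ribosomes, was shallow in the heart, with 39016 to 175747 counts per mouse. *Actr3b-201* had disome counts of 3, 4, 12 and 1 in WT and 2, 4, 2 and 0 in *Rpl3l*-/- mice, *P4ha2-201* 8, 2, 1 and 2 against 9, 8, 0 and 1, and *Rnf14-203* 7, 0, 3 and 0 against 10, 1, 0 and 2. None of the 20 transcripts reached a mean of 10 disome counts, the filter of the test. Without the filter, 0 of the 20 passed the threshold in disomes relative to footprints (adjusted p from 0.572 to 1.00, edgeR's quasi-likelihood test). *Actr3b-201* differed by -1.45 (SE 0.74, adjusted p = 0.596), and only *Rnf14-212*, with disome counts of 1, 0, 3 and 0 in WT and 0 in all *Rpl3l*-/- mice, had an unadjusted p under 0.05.

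**Figure D4:**
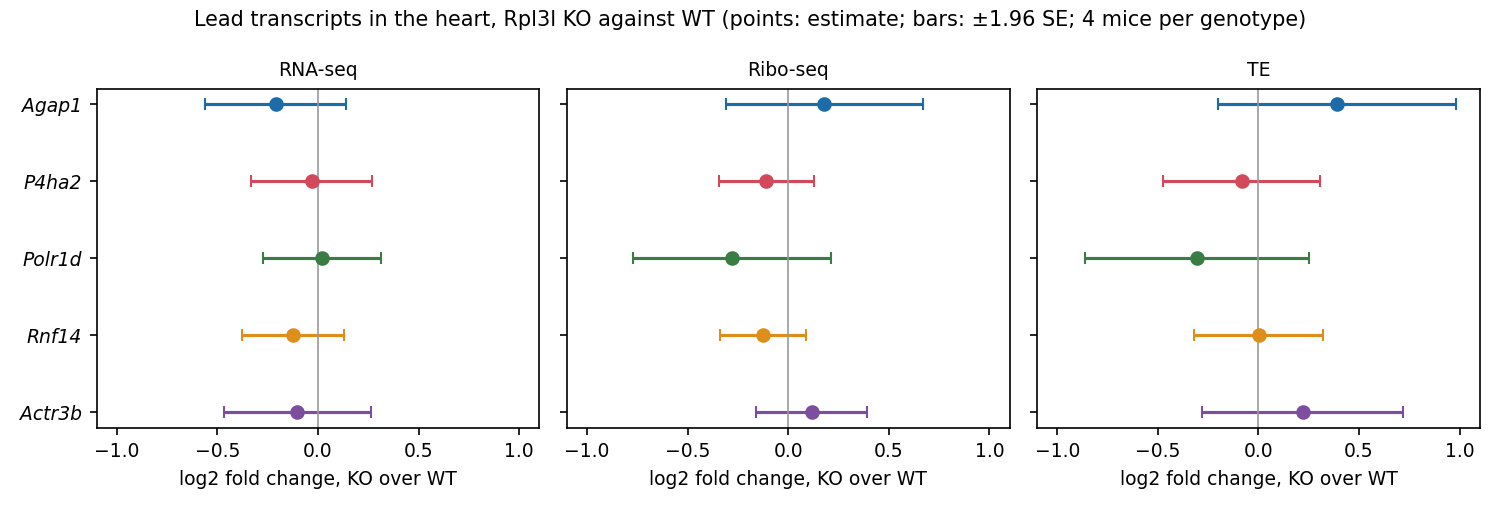
Log2 fold changes of *Rpl3l*-/- over WT hearts in RNA-seq, Ribo-seq and TE for the lead transcripts of the 5 genes (4 mice per genotype), with bars for the approximate 95% interval. All 15 intervals include 0, and the widest is that of *Agap1* TE, from -0.20 to 0.98.

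WT hearts were also compared with control C2C12 cells, which shows where the 5 genes are expressed and translated. In this contrast tissue, cell culture and library preparation cannot be told apart. Of the 20 transcripts 15, from all 5 genes, passed the threshold in RNA-seq, and 16, from 4 genes, in TE. Over all transcripts 80.7% passed in RNA-seq and 47.9% in TE, so the RNA-seq share was near that of all transcripts. The TE count was 8 without WT replicate 2, 8 without control replicate 1 and 8 without control replicate 3.

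*Actr3b*, the gene with the least mRNA in C2C12 cells, had the largest difference. Per kilobase of coding sequence, *Actr3b-201* mRNA was 2.00 ± 0.181 CPM in control cells (SD, n = 3) and 38.6 ± 12.5 CPM in WT hearts (SD, n = 4), which was 19.1-fold higher (log2 difference 4.25, SE 0.24, adjusted p = 9.58e-10, edgeR's quasi-likelihood test). *P4ha2-201* mRNA was higher in the heart by 1.45 on the log2 scale (adjusted p = 6.25e-07) and *Agap1-202* mRNA differed by -1.89 (adjusted p = 1.77e-08). *Rnf14-203* mRNA differed by 0.73 (adjusted p = 0.000102) with TMM scaling but by -0.03 when libraries were scaled by their totals, a scaling that moved the median of all transcripts from -0.08 to -0.83. *Polr1d-202* mRNA differed by -0.52 (adjusted p = 0.00184), and by -0.23 (adjusted p = 0.140) when the counts of the isoforms were summed.

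In control cells the order of mRNA per kilobase was *Polr1d* (236 CPM), *Agap1* (35.1), *Rnf14* (31.6), *P4ha2* (12.4) and *Actr3b* (2.00), and the cultures of *Agap1* (33.9 to 36.2) and *Rnf14* (30.3 to 34.2) overlapped. In WT hearts it was *Polr1d* (166 CPM), *Rnf14* (52.4), *Actr3b* (38.6), *P4ha2* (34.3) and *Agap1* (9.79). There *Rnf14* (42.0 to 61.0) overlapped with *Actr3b* (28.9 to 57.0), and *Actr3b* with *P4ha2* (25.4 to 41.9). *Agap1* was thus second in control cells and last in the heart.

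In TE, *Polr1d-202* fell to 0.355 of its level in control cells (approximate 95% interval of the log2 difference from -1.92 to -1.08, SE 0.21, adjusted p = 1.06e-05, edgeR's quasi-likelihood test), with 0.456 ± 0.0660 in control cells and 0.171 ± 0.0471 in WT hearts. This fall belongs to the isoform and was not seen in *Polr1d-201*, which had more mRNA in WT hearts (67.4 against 49.8 CPM). With cells and hearts scaled separately, *Polr1d-201* TE was 0.370 to 0.482 in control cells and 0.284 to 0.436 in WT hearts, which overlapped. For *Polr1d-202* these ranges were 0.338 to 0.453 and 0.117 to 0.240. *Rnf14-203* differed by 0.51 (adjusted p = 0.0127), and by 0.39 (adjusted p = 0.112) without control replicate 3. *Agap1-202* differed by 0.69 (adjusted p = 0.0272), a call that was lost without WT replicate 2 (0.43, adjusted p = 0.153), WT replicate 4 (0.65, adjusted p = 0.0524), control replicate 1 (0.63, adjusted p = 0.106), control replicate 2 (0.66, adjusted p = 0.0842) or control replicate 3 (0.74, adjusted p = 0.0536). *P4ha2-201* differed by -0.50 (adjusted p = 0.0317), and the call was lost with scaling by library totals (-0.12, adjusted p = 0.597) and without WT replicate 2 (-0.44, adjusted p = 0.0754), control replicate 1 (-0.44, adjusted p = 0.141), control replicate 2 (-0.51, adjusted p = 0.0832) or control replicate 3 (-0.56, adjusted p = 0.0628). *Actr3b-201* differed by -0.20 (SE 0.38, adjusted p = 0.687) with TMM and by 0.17 with library totals, which moved the median of all transcripts from -0.04 to 0.33.

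**Figure D5:**
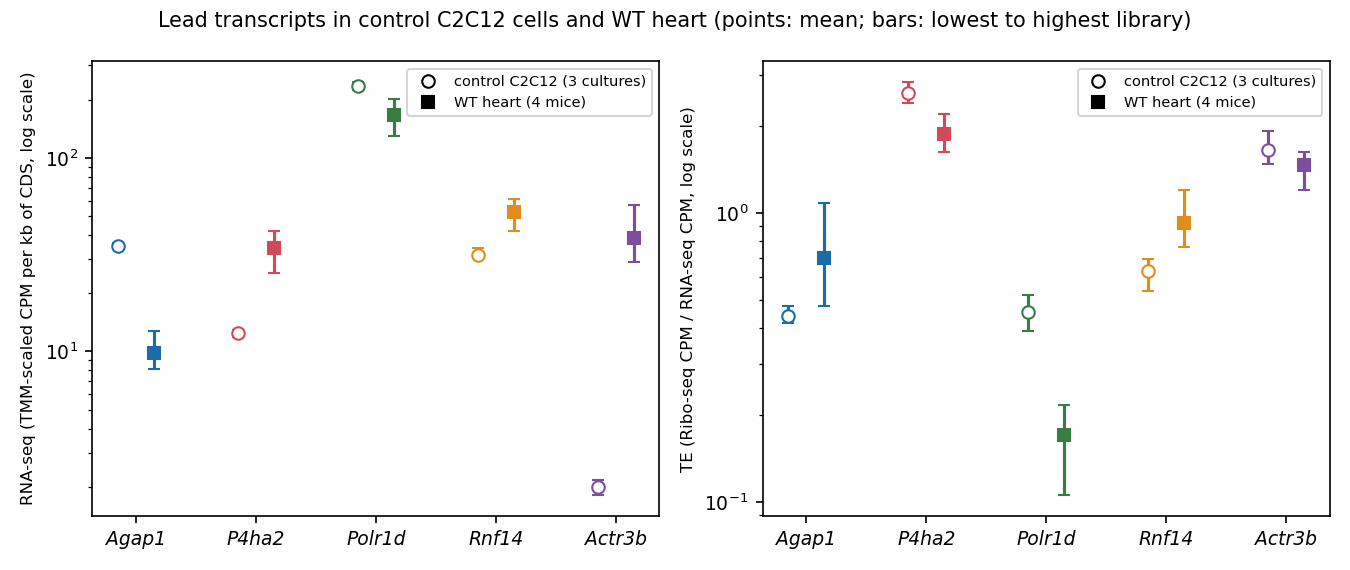
RNA-seq level per kilobase of coding sequence (TMM-scaled CPM, left, log axis) and TE (right, log axis) of the lead transcripts of the 5 genes in control C2C12 cells and WT hearts. Points are means and bars run from the lowest to the highest library (3 cultures, 4 mice). *Actr3b-201* mRNA is 2.00 CPM in cells and 38.6 CPM in the heart, and *Polr1d-202* TE is 0.456 in cells and 0.171 in the heart. Other isoforms, among them *Polr1d-201*, are not shown.

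Some reads of these genes could belong to other genes. Within the span of *Agap1* lie the antisense gene *4933400F21Rik* and 5 small or uncharacterized genes, within *Polr1d* the antisense pseudogene *Rps10-ps4*, and within *Rnf14* the small nuclear RNA gene *Gm23205*. The strand setting of the counting is not given in the sources used here. Of 2603 pairs of transcripts with the same coding exons and different lengths, 71.5% had identical RNA-seq counts in every library. Reads therefore appear to have been counted mostly over coding sequences and shared between isoforms. Isoforms with the same coding sequence could still differ a little. In Ribo-seq of control replicate 3, *Rnf14-201* had 97 counts and *Rnf14-203* had 99. Small differences between isoforms of a gene thus need not come from the coding bases in which they differ.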

How the data were processed

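Heart libraries (RNA-seq, Ribo-seq, Disome-seq and m6A-seq) and C2C12 libraries (RNA-seq and Ribo-seq) were re-analysed, and tRNA-seq is not analysed here. The authors deposited raw read counts per transcript and, for m6A-seq, a read count and a TPM value for each peak. Footprint reads (Ribo-seq, Disome-seq) had been trimmed with cutadapt and freed of rRNA by the authors, aligned with STAR to GRCm38.p6 (mm10), removed duplicates by molecular identifiers and counted with featureCounts. No separate processing of RNA-seq reads is given in the sources used here. Multiple mapping was allowed in the alignment, so reads of similar genes may be shared.

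Lines come in identical pairs, and 1 line of each pair of 2 was used. GENCODE M21 gave genes and positions for 23662 of 23877 transcripts, all on the plus strand. The 5 genes were fixed by name with all isoforms, and *Rpl3l* was the check of the labels. The genes named beside them were the 2 next increases and the 2 next decreases at the threshold, the 2 genes most alike, and up to 3 genes per list with the smallest p-values or past the threshold. The 5 genes, the lists and the tests were chosen with earlier results of these data known.

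Counts were tested with edgeR 4.0.16 (R 4.3.3), quasi-likelihood, two-sided, TMM scaling within each assay, a mean count of at least 10 and Benjamini-Hochberg adjustment over all transcripts, with a threshold of 0.05. The TE test was the group-by-assay interaction, with all 3 C2C12 groups in 1 model and both genotypes in another. The 2 Disome-seq runs of a mouse were summed. The TE values of single libraries are ratios of CPM. Depth, given with the results, and the spread between libraries limit the precision. DESeq2 1.42.0, other filters and scalings, 1 transcript per gene, summed isoforms, fits without each replicate and fits with the replicate number as a block were alternatives. Python 3.11.15, NumPy 2.4.6, pandas 2.3.3 and matplotlib 3.10.9 were used for summaries and figures.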

Additional observations from a re-analysis of the deposited data

How the results depend on the processing

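Of the alternatives, 1011 values kept direction and side of the threshold, 54 lost a call, 5 gained one and 37 changed sign. Of those 37, 1 had passed the threshold before. The number of transcripts of the 5 genes past the threshold moved by over 1.5 times as follows. In TE between RPL3L OE and RPL3 OE cells it was 14, and 9 by DESeq2 (of 14 with an adjusted p), 4 with 1 transcript per gene and 4 to 14 without 1 replicate. In TE of RPL3L OE against control cells it was 5, and 10 with library totals, 1 with 1 transcript per gene and 2 to 11 without 1 replicate. With 1 transcript per gene, RNA-seq gave 4 in place of 12 for RPL3L OE against RPL3 OE cells, 3 in place of 7 for RPL3L OE and 2 in place of 4 for RPL3 OE against control cells, and Ribo-seq gave 2 in place of 10 for RPL3L OE against RPL3 OE cells and 1 in place of 3 for RPL3 OE against control cells. Ribo-seq of RPL3L OE against control cells gave 5, and 3 without the filter on low counts, 0 by DESeq2 (of 9 with an adjusted p), 1 with 1 transcript per gene, 3 with only the 2 groups compared and 0 to 5 without 1 replicate. Between WT heart and control cells, 1 transcript per gene gave 3 in place of 16 in TE and 5 in place of 15 in RNA-seq, and leaving out 1 replicate gave 8 to 16 in TE. With 1 transcript per gene fewer transcripts are counted, and the other causes were not tested.

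Same-numbered libraries of different groups deviated with correlations of -0.091 to 0.059 in C2C12 cells and -0.222 to 0.182 in the heart, and RNA-seq and Ribo-seq libraries of 1 number with -0.037 to 0.082 in C2C12 cells, 0.12 to 0.273 in WT hearts (4 of 4 over 0.1, each RNA-seq library correlating best with its own number) and -0.522 to 0.488 in *Rpl3l*-/- hearts (2 of 4 over 0.1). Since not every pair exceeded 0.1, the numbers were not taken to pair the samples, though those of the WT hearts may. With the replicate number as a block, Ribo-seq of RPL3L OE against control cells gave 3 in place of 5, and the other counts stayed within 1.5 times, with 14 in TE between RPL3L OE and RPL3 OE cells. The paired fit also turned *Rnf14* in RNA-seq of RPL3 OE against control cells to 0.0012 and *Rnf14* TE in the heart to -0.0081, and changed no other sign. No transcript of the 5 genes passed the filter of the disome test. Without the filter 0 of 20 passed the threshold, with summed isoforms *P4ha2* and *Rnf14* could be fitted and did not pass, and the other disome alternatives gave no value for them.

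The sign change of a called value was *Rnf14* RNA-seq between WT heart and control cells, which was -0.027 with library totals. Library totals also gave 0.17 for *Actr3b* TE in that comparison, 0.0071 for *Agap1* Ribo-seq of RPL3L OE and 0.025 for *P4ha2* Ribo-seq of RPL3 OE against control cells, and -0.025 for *Rnf14* TE in the *Rpl3l*-/- heart. This last value was also -0.025 without the filter, -0.0047 by DESeq2, -0.0014 with 1 transcript per gene, -0.022 with summed isoforms and -0.084 to 0.12 without 1 replicate. *Rnf14* RNA-seq of RPL3 OE against control cells was 0.0030 by DESeq2, 0.0041 with summed isoforms and -0.050 to 0.048 without 1 replicate. Summed isoforms gave 0.0032 for *P4ha2* and 0.052 for *Polr1d* in Ribo-seq of RPL3 OE against control cells, and a mean count of at least 50 gave -0.00029 for *Polr1d* in Ribo-seq of RPL3L OE against control cells. Without 1 replicate, Ribo-seq against control cells ranged from -0.076 to 0.057 for *Agap1* and -0.070 to 0.077 for *Polr1d* in RPL3L OE cells and from -0.044 to 0.079 for *P4ha2* in RPL3 OE cells. In the *Rpl3l*-/- heart, RNA-seq ranged from -0.15 to 0.073 for *P4ha2*, -0.084 to 0.12 for *Polr1d* and -0.22 to 0.13 for *Actr3b*, and Ribo-seq of *Actr3b* from -0.0021 to 0.24.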
